A study of Rattus norvegicus with 6 samples.

Results

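Growth and trophic factors that microglia can release were examined as a group of 10 genes, chosen by name as ligands of receptor tyrosine kinases, in LPS-stimulated primary rat microglia with or without siponimod. All 10 (Csf1, Hbegf, Areg, Ereg, Pdgfa, Pdgfb, Igf1, Bdnf, Gdnf and Hgf) were among the 23139 genes listed in each of the 6 count tables. The cells were obtained from cortices of Wistar rats at postnatal day 1, shaken off mixed glial cultures and sorted with beads against CD11b/c, and the labels name no genetic alteration. In the LPS group (n = 3 libraries) they received 100 ng/mL lipopolysaccharide (LPS, a bacterial cell wall component that activates microglia) with DMSO as the solvent control, and in the LPS/siponimod group (n = 3) the same LPS dose with 50 µM siponimod, a modulator of sphingosine 1-phosphate receptors. Both groups carried LPS, and unstimulated cells or cells with siponimod alone were not analysed here, so that every value compares LPS/siponimod with LPS. Total counts ranged from 38080379 to 46643859 per library.

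These factors are secreted, or shed from the cell surface, and act on neighbouring cells or on the cell that made them. CSF1 sustains microglia and macrophages through CSF1R. HB-EGF, amphiregulin and epiregulin are made as membrane-bound precursors that are cut by ADAM proteases and then bind the EGF receptor family. PDGF chains act on oligodendrocyte precursors and perivascular cells, IGF1 on neurons and oligodendrocytes, BDNF and GDNF on neurons, and HGF on many cell types through MET.

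Before the genes are described, 1 library has to be set apart. LPS replicate 3 correlated with the other 2 LPS libraries at r = 0.935 and 0.945 over log2 CPM of the genes tested, against 0.983 between those 2. It also held transcripts of other brain cells. Olig1, a transcription factor of the oligodendrocyte lineage, had 515 counts in LPS replicate 3 against 1 and 5 in LPS replicates 1 and 2, and 2, 3 and 17 in LPS/siponimod replicates 1, 2 and 3. Pdgfra, the PDGF receptor that marks oligodendrocyte precursors, had 284 counts there against 5 and 4, and 1, 4 and 81 with LPS/siponimod. The neuronal gene Map2 had 162 counts against 0 and 3, and 1, 1 and 115 with LPS/siponimod, and the astrocyte gene Gfap 88 against 1 and 2, and 0, 0 and 1 with LPS/siponimod. Both libraries numbered 3 thus held more of several of these transcripts than the libraries numbered 1 and 2.

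Of 8 oligodendrocyte lineage markers, 6 were highest in LPS replicate 3 among the LPS libraries, and their summed level was 5.34, 5.37 and 36.0 normalized counts (CPM, counts scaled to the effective library size) in LPS replicates 1, 2 and 3 and 11.4, 10.3 and 22.6 CPM in LPS/siponimod replicates 1, 2 and 3. Mbp had the most counts of them in every library except LPS replicate 3, where Olig1 did. All 8 neuronal markers were highest in LPS replicate 3 among the LPS libraries (sums of 1.73, 1.09 and 12.4 CPM, and 6.39, 9.28 and 17.4 CPM with LPS/siponimod, with Tubb3 most abundant). For some of them this rests on very few counts (Snap25 had 0, 1 and 1, and Nefl 1, 0 and 3). Of the 12 receptor genes described below, 8 were also highest in LPS replicate 3, and the share over all genes was not computed. Of 8 astrocyte markers 6 were highest in LPS replicate 3. Their sum, which was led by Slc1a3, was however 42.5, 21.1 and 24.3 CPM with LPS and 27.6, 26.9 and 59.2 CPM with LPS/siponimod. The 7 fibroblast and pericyte markers summed to 6.05, 4.75 and 3.98 CPM with LPS and 11.9, 4.64 and 8.66 CPM with LPS/siponimod, with Rgs5 at 0 counts in all libraries. Col1a1 had the most counts of them in all libraries except LPS/siponimod replicates 1 and 3, where Dcn did. Among 5 endothelial markers Kdr and Emcn had no count in any library, and the sum of 19.8 to 119.8 CPM was led by Cdh5. All 13 microglial markers were detected in every library, with sums of 10990, 8756 and 5714 CPM with LPS and 4381, 5511 and 3120 CPM with LPS/siponimod, and Csf1r, Cd68 or Itgam had the most counts. Aif1, Cx3cr1 and Itgam were lower with LPS/siponimod by the test described below (with the replicate number as a block in the model, 8 markers were lower), and Cx3cr1 was near 0 in that group (3, 21 and 4 counts). Each of these 3 calls was lost in some fit that left out 1 library (highest adjusted p = 0.0982, 0.147 and 0.0618). All 3 were also lost without both libraries numbered 3 (adjusted p = 0.0595, 0.063 and 0.0527).

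Of the markers of other cell types, 3 were higher by that test and none lower. With the replicate block Tubb3 was also higher (adjusted p = 0.0316) and the endothelial Cdh5 lower (adjusted p = 0.0142). Without LPS replicate 3 Tubb3 was also higher (adjusted p = 0.0277). The fibroblast marker Col1a1 was lower in each same-numbered pair of libraries but not called (log2 fold change -0.89, adjusted p = 0.0526). It was called lower without LPS replicate 3 (adjusted p = 0.0473) and without both libraries numbered 3 (adjusted p = 0.0488). The median log2 fold change of the 5 fibroblast and pericyte markers tested was -0.65. Dcn, which encodes a matrix proteoglycan of fibroblasts, had 3, 0 and 4 counts under LPS against 456, 49 and 178 under LPS/siponimod (log2 fold change 6.28, adjusted p = 0.0155). Snap25, which encodes a protein of synaptic vesicle release, had 0, 1 and 1 counts under LPS against 94, 153 and 81 under LPS/siponimod, at least 31.0-fold higher against 3 counts in each library (adjusted p = 0.00539). Mbp, which encodes a myelin protein, had 149, 161 and 84 counts under LPS against 470, 397 and 652 under LPS/siponimod (log2 fold change 1.74, adjusted p = 0.0172). LPS replicate 3 did not stand above the other LPS libraries by more than 1 count for Dcn, Snap25 and Mbp. With 1 library left out at a time, the highest adjusted p was 0.0688 for Dcn (without LPS/siponimod replicate 1) and 0.0623 for Mbp (without LPS replicate 2), where both lost their call, and 0.0418 for Snap25. Without both libraries numbered 3 Dcn was not called (adjusted p = 0.0515). In bulk samples fewer cells of a type and less RNA per cell cannot be told apart. The part of other cell types in the results below was not tested beyond these values.

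**Figure D1:**
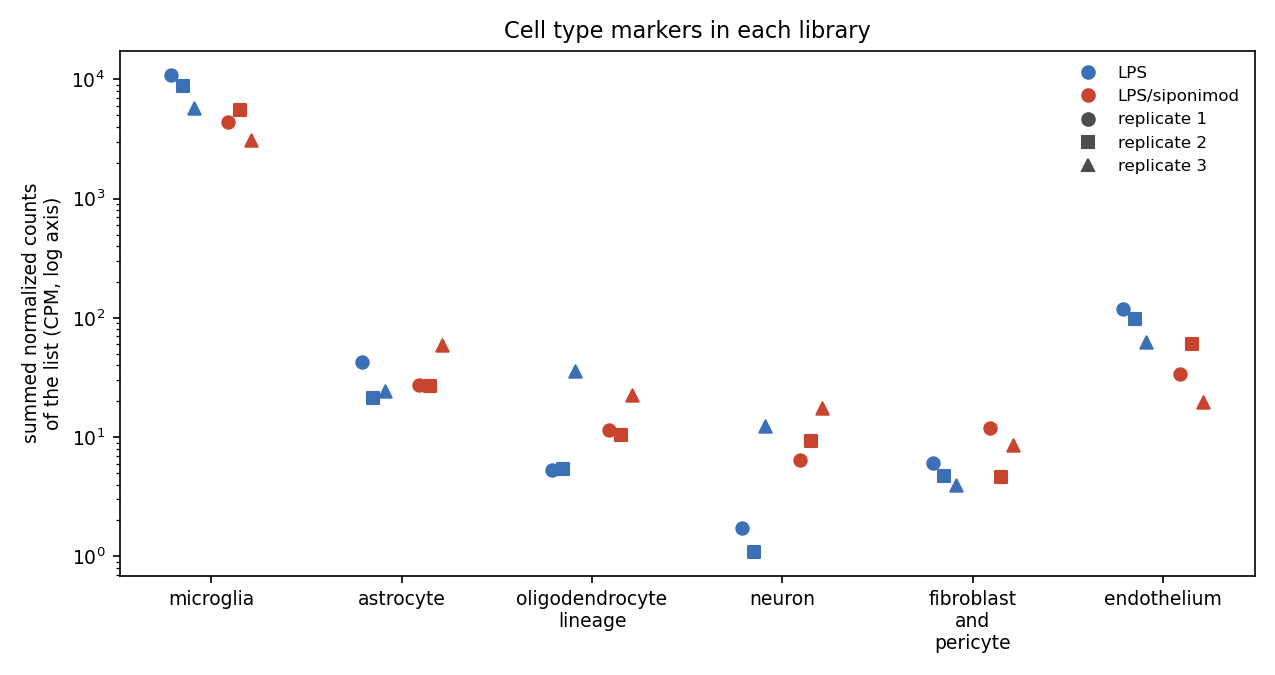
Summed normalized counts (CPM, log axis) of the markers of 6 cell types, with 1 point per library, LPS in blue and LPS/siponimod in red, and the marker shape giving the replicate number. LPS replicate 3 stands above the other 2 LPS libraries for the oligodendrocyte lineage (36.0 against 5.34 and 5.37 CPM) and for neurons (12.4 against 1.73 and 1.09 CPM).

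Of the 10 genes, 8 had enough counts to be tested, and Bdnf and Gdnf did not. Csf1, Ereg and Pdgfa rose with LPS/siponimod, none of the 8 fell, and 5 did not pass the test. A gene was called at an adjusted p of at most 0.05 (edgeR quasi-likelihood test, Benjamini-Hochberg over 11977 genes) with a fold change of at least 1.5. By the same rule 25.3% of all genes tested were called, 13.6% higher and 11.7% lower. Levels are given as mean ± SD of the 3 libraries of a condition in CPM, and changes as log2 fold changes (FC) with their standard error (SE). The median log2 FC was 0.87 over the 8 genes and -0.02 over all genes tested. No gene of the 8 lay near that median. Csf1, Areg, Ereg and Pdgfa had values of 1.96 or more, and Hbegf, Pdgfb, Igf1 and Hgf of -0.22 or less. In 4 of the 8 the libraries of the conditions did not overlap, as was the case in 49.3% of all genes tested. The smallest p that an exact permutation test could give here for 1 gene is 0.10, so that each call also rests on the spread edgeR estimates from the other genes. In a fit that had the replicate number as a block, 4 genes were called higher (Areg in addition) and 1 lower (Pdgfb), beside 17.7% and 16.4% of all genes tested. Without LPS replicate 3, 5 were higher (Areg and Hbegf in addition) and 1 lower (Pdgfb), beside 15.9% and 14.5%, whereas without LPS replicate 2 none was called and the calls over all genes fell from 3036 to 651.

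**Figure D2:**
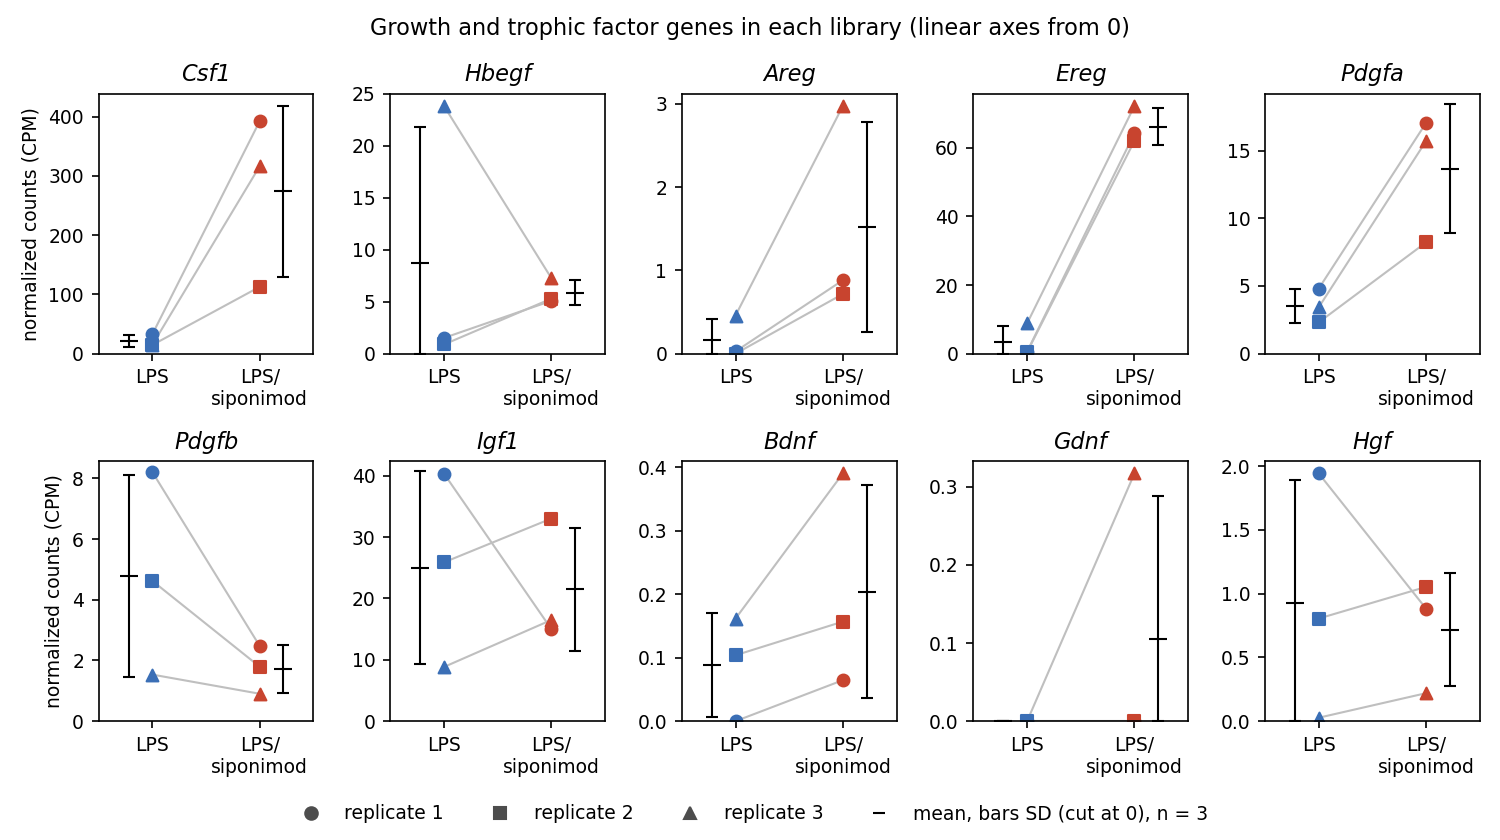
Normalized counts (CPM, linear axes from 0) of the 10 genes in each library, with lines joining libraries of the same replicate number and black bars giving mean and SD (n = 3). Csf1, Areg, Ereg and Pdgfa were higher in all 3 LPS/siponimod libraries than in any LPS library, whereas Hbegf was high in LPS replicate 3 alone (23.8 CPM).

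Csf1, the ligand that keeps microglia alive and drives their proliferation, had 1211, 564 and 555 counts in LPS replicates 1, 2 and 3 and 18233, 5036 and 12970 in LPS/siponimod replicates 1, 2 and 3. The lowest LPS/siponimod library lay above the highest LPS library, and LPS replicate 3 did not stand apart for this gene (14.9 CPM against 14.6 in LPS replicate 2). Csf1 rose 13.2-fold, from 20.8 ± 10.3 to 274 ± 145 CPM (log2 FC 3.72, SE 0.59, adjusted p = 0.0105). Within same-numbered pairs the log2 difference was 3.58, 2.94 and 4.40. The call was kept in 5 of the 6 fits that left out 1 library and was lost without LPS replicate 2 (adjusted p = 0.0561).

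Csf1r, which encodes the receptor of CSF1, had 113056, 90149 and 34614 counts under LPS against 29533, 58416 and 20121 under LPS/siponimod. It was lower in each of the 3 pairs, but the conditions overlapped, as LPS replicate 3 lay below LPS/siponimod replicate 2. Its log2 FC of -1.38 (SE 0.55) did not pass the test (adjusted p = 0.106) and passed with the replicate block (adjusted p = 0.0375) and without LPS replicate 3 (-1.73, adjusted p = 0.0374), but not without both libraries numbered 3 (-1.47, adjusted p = 0.0782). Of the 4 colony-stimulating factor genes Csf1, Il34, Csf2 and Csf3, 3 were tested and Csf1 was called higher. Il34, which encodes the other ligand of CSF1R, had 1 count in LPS replicate 1 and 0 in the other libraries.

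Among the EGF receptor ligands Ereg showed the largest fitted change of the 8 genes tested. Ereg, which encodes epiregulin, had 22, 18 and 328 counts under LPS against 2985, 2770 and 2962 under LPS/siponimod. The 3 LPS/siponimod libraries were close to each other, with a highest level 1.16 times the lowest, while LPS replicate 3 exceeded LPS replicate 2 18.9-fold and still lay far below them. Ereg rose 20.1-fold, from 3.30 ± 4.79 to 66.2 ± 5.36 CPM (log2 FC 4.33, SE 1.16, adjusted p = 0.0372). Without LPS replicate 3 the log2 FC was 6.96 (SE 0.20, adjusted p = 0.00175), and with the replicate block it was 5.38 (adjusted p = 0.0151). In each of the 5 fits that kept LPS replicate 3 and left out another library the call was lost, with adjusted p-values up to 0.114.

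Areg, which encodes amphiregulin, was sparse, with 1, 0 and 17 counts in LPS replicates 1, 2 and 3 and 41, 32 and 122 in LPS/siponimod replicates 1, 2 and 3. The conditions did not overlap, and within each condition the library numbered 3 was the highest. Its mean level was 0.161 ± 0.257 CPM with LPS and 1.52 ± 1.26 CPM with LPS/siponimod. The log2 FC of 3.22 (SE 1.33) did not pass the test (adjusted p = 0.114), and with the replicate number as a block Areg was called higher (3.73, SE 0.74, adjusted p = 0.0187). Without LPS replicate 3 the remaining LPS libraries had 3 counts or fewer, and Areg was at least 19.2-fold higher against 3 counts in each library (adjusted p = 0.021). With LPS/siponimod replicate 3, its highest library, left out as well, this bound was 10.1-fold (adjusted p = 0.0337).

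The promoter of Areg is shown because it holds a full cAMP response element, the palindrome bound by CREB and ATF factors. RefSeq gives the 250 bases before its start site on assembly GRCr8 (chr14:17265642-17265891, minus strand), and these positions belong to that assembly and not to mRatBN7.2, to which the reads were mapped. Capitals mark the element TGACGTCA, from 91 to 84 bases before the start, and after it a match to the NF-kB motif (GGG and CC with 5 free bases between them) on the opposite strand, from 78 to 69 bases before the start.
Areg: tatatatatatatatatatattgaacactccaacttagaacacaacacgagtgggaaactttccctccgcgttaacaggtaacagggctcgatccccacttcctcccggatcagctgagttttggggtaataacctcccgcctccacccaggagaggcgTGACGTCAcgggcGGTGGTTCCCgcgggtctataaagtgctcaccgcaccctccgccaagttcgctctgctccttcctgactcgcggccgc
RefSeq promoters were matched for 8 of the 10 genes, Csf1 and Ereg being those not matched. Of 33469 promoter windows of this length 1.59% held TGACGTCA and 42.3% held the NF-kB motif on either strand. The element TGACGTCA was found in 1 of the 8 genes, the AP-1 motif TGANTCA in 1 (Bdnf, against 6.34% of windows) and the C/EBP-ATF motif TGATGNAA in 1 (Bdnf, which has several start sites, against 3.4% of windows). The NF-kB motif was found in 3 of the 8 (Areg, Pdgfb and Bdnf). These are counts of genes and the percentages are shares of windows. Bdnf, with several windows, had more opportunities for a match, so the 2 are not directly comparable. The motifs share letters, and matches of 1 can overlap another. These matches describe letters in a window and no binding was measured.

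Hbegf, the third ligand of this group and the precursor of HB-EGF, was higher in pairs 1 and 2 and lower in pair 3. It had 56, 34 and 885 counts under LPS against 236, 236 and 298 under LPS/siponimod. The LPS/siponimod libraries were alike (5.08, 5.29 and 7.27 CPM), while LPS replicate 3 held 23.8 CPM against 1.51 and 0.883 CPM in LPS replicates 1 and 2. Over all libraries its log2 FC was -0.57 (SE 1.17, adjusted p = 0.735). Without LPS replicate 3 it was 2.30 (SE 0.36, adjusted p = 0.0144), and with both libraries numbered 3 left out 2.12 (adjusted p = 0.0356). With the replicate block the log2 FC was 0.86 (SE 0.96, adjusted p = 0.507). With limma-voom on all libraries it was 0.87, so that the sign of Hbegf depended on the model as well as on that library.

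Of 11 genes for ligands of the EGF receptor family, neuregulins among them, the 3 above and Egf were tested and Ereg was called. Of their receptors, Egfr, Erbb2 and Erbb4 were scarce. Egfr had 8, 3 and 14 counts under LPS against 6, 9 and 13 under LPS/siponimod, Erbb2 between 1 and 14 counts and Erbb4 between 0 and 4, and none of these 3 was tested. Erbb3, which binds neuregulins and has a weak kinase of its own, had 720, 727 and 491 counts under LPS against 774, 1134 and 617 under LPS/siponimod (a log2 FC of 0.15, SE 0.26, adjusted p = 0.69).

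Among 20 genes for the release and activation of precursors 14 were tested, of which 2 were higher and 1 lower (median log2 FC -0.41). With the replicate block 3 of them were called higher and 2 lower. Rhbdf2, which encodes the iRhom that guides ADAM17 to the cell surface in myeloid cells, rose from 98.3 ± 45.9 to 211 ± 14.2 CPM (log2 FC 1.10, SE 0.32, adjusted p = 0.0466). Furin, a protease that activates pro-proteins including PDGF chains and ADAMs, had 4172, 5497 and 6893 counts under LPS against 16156, 15667 and 15859 under LPS/siponimod (a log2 FC of 1.30, SE 0.21, adjusted p = 0.0106). Adam9, a membrane metalloprotease, fell from 201 ± 50.7 to 70.3 ± 36.7 CPM (log2 FC -1.52, SE 0.41, adjusted p = 0.0376). Adam17 itself did not pass the test (log2 FC -0.58, SE 0.20, adjusted p = 0.0728).

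The fitted changes of the PDGF chains had opposite signs, and that of the A chain alone passed the test. Pdgfa, which encodes the A chain and signals through PDGFRA, had 178, 89 and 127 counts in LPS replicates 1, 2 and 3 and 792, 367 and 644 in LPS/siponimod replicates 1, 2 and 3. All LPS/siponimod libraries lay above all LPS libraries. Pdgfa rose 3.89-fold, from 3.51 ± 1.25 to 13.7 ± 4.76 CPM (log2 FC 1.96, SE 0.39, adjusted p = 0.0175), and the log2 difference within pairs was 1.82, 1.81 and 2.18. The fitted log2 FC was 1.95 both without LPS replicate 3 (adjusted p = 0.0325) and with the replicate block (adjusted p = 0.00493). The call was lost without LPS replicate 2, LPS/siponimod replicate 1 or LPS/siponimod replicate 3, with adjusted p-values of at most 0.0745, and without both libraries numbered 3 (log2 FC 1.83, adjusted p = 0.0714).

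Pdgfb, which encodes the B chain, had 304, 178 and 57 counts under LPS against 115, 80 and 37 under LPS/siponimod. It was lower in each of the 3 pairs, and the libraries numbered 3 were the lowest of both conditions, so that the conditions overlapped (LPS replicate 3 lay below LPS/siponimod replicates 1 and 2). Its log2 FC of -1.47 (SE 0.66) did not pass the test (adjusted p = 0.14). With the replicate block Pdgfb was called lower (-1.31, SE 0.27, adjusted p = 0.0205), as it was without LPS replicate 3 (-1.89, adjusted p = 0.0356), and without both libraries numbered 3 the adjusted p was 0.0534.

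The promoters of both chains are shown side by side because their fitted changes had opposite signs. They are the 250 bases before the start on GRCr8 (Pdgfa chr12:20759116-20759365, plus strand; Pdgfb chr7:113438344-113438593, minus strand), and capitals mark matches to the NF-kB motif.
Pdgfa: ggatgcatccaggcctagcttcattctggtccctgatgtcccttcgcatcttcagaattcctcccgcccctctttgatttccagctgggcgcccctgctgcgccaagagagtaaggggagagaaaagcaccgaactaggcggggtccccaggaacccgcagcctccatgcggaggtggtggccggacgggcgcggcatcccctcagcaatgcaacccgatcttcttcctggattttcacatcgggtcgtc
Pdgfb: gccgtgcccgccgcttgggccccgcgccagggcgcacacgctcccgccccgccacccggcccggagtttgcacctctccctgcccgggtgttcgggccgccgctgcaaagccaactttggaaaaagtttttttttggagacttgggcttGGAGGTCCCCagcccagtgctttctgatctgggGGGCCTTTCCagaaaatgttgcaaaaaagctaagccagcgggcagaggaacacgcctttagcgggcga
None of the 4 motifs searched was found in the Pdgfa window. The Pdgfb window held the NF-kB motif from 101 to 92 bases before the start on the opposite strand and from 68 to 59 bases before the start on the gene's strand, and neither TGACGTCA nor the AP-1 motif.

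The PDGF receptors were low and varied with the library. Pdgfra was described above for LPS replicate 3 and was not tested, and Pdgfrb had 36, 29 and 3 counts under LPS against 9, 21 and 20 under LPS/siponimod (a log2 FC of -0.65, SE 0.85, adjusted p = 0.59). Of 9 genes of the PDGF and VEGF family 5 were tested, and Vegfa and Vegfb, ligands of blood vessel growth, rose beside Pdgfa. Vegfa rose from 21.5 ± 13.7 to 393 ± 203 CPM (log2 FC 4.19, SE 0.69, adjusted p = 0.0112), and Vegfb from 8.84 ± 3.09 to 62.4 ± 24.6 CPM (log2 FC 2.82, SE 0.42, adjusted p = 0.00924).

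Igf1, a growth factor that microglia release during development and after injury, had 1495, 997 and 328 counts in LPS replicates 1, 2 and 3 and 698, 1474 and 676 in LPS/siponimod replicates 1, 2 and 3. It was lower with LPS/siponimod in pair 1 (a log2 difference of -1.42) and higher in pairs 2 and 3 (0.35 and 0.90), and the conditions overlapped. The log2 FC was -0.22 with a SE of 0.57 (25.0 ± 15.8 against 21.5 ± 10.0 CPM, adjusted p = 0.796), and none of its 13 alternatives called it.

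Of the receptors that bind insulin or insulin-like growth factors, Insr and Igf2r rose and Igf1r did not pass the test. Insr, which encodes the insulin receptor, rose from 19.3 ± 5.20 to 84.8 ± 15.9 CPM (log2 FC 2.14, SE 0.25, adjusted p = 0.00655). Igf2r, whose product carries lysosomal enzymes and clears IGF2, had 584, 430 and 252 counts under LPS against 6650, 3027 and 5939 under LPS/siponimod (a log2 FC of 3.40, SE 0.44, adjusted p = 0.00733). Igf1r, the signalling receptor of IGF1, had 404, 615 and 623 counts under LPS against 435, 785 and 503 under LPS/siponimod (a log2 FC of -0.15, SE 0.29, adjusted p = 0.708). Of the 7 genes of the IGF axis that were tested, which include Igf1 and 4 binding proteins, Insr and Igf2r were called higher and none lower, and with the replicate block 4 were called higher.

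The neurotrophic members were near the limit of detection. Bdnf, the neurotrophin that acts on TrkB, had 0, 4 and 6 counts under LPS against 3, 7 and 16 under LPS/siponimod, and Gdnf had no count except for 13 in LPS/siponimod replicate 3. A count of 0 allows up to 3 counts, or 0.081, 0.0779 and 0.0808 CPM in LPS replicates 1, 2 and 3 (counting error only). Bdnf was higher in each of the 3 pairs, but the conditions overlapped, and the single library with Gdnf is the one of LPS/siponimod with the most Olig1, Pdgfra and Map2. Both genes stayed below the filter, and with no filter beyond 1 count their adjusted p-values were 0.528 (Bdnf) and 0.282 (Gdnf).

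Among 10 genes in a list of neurotrophic factors 4 were tested and 2 rose. The list held neurotrophins and GDNF family ligands, and also others such as Manf, which belongs to neither family. Manf, an endoplasmic reticulum protein that is released under stress and protects neurons, rose from 67.5 ± 17.8 to 150 ± 38.2 CPM (log2 FC 1.15, SE 0.27, adjusted p = 0.027). Nrtn, the GDNF family ligand neurturin, had 21, 12 and 2 counts under LPS against 187, 62 and 107 under LPS/siponimod (a log2 FC of 3.09, SE 0.81, adjusted p = 0.0357). Ret, the receptor kinase shared by this family, had 16, 10 and 1 counts under LPS against 90, 106 and 64 under LPS/siponimod and was the only one of the 7 receptor genes tested to be called (log2 FC 3.02, SE 0.78, adjusted p = 0.0347). Its co-receptor gene Gfra1 was not analysed here. The BDNF receptor genes were detected mainly in libraries numbered 3, Ntrk2 with 389 counts in LPS replicate 3 and 154 in LPS/siponimod replicate 3 against 9 to 29 elsewhere (log2 FC -1.24, SE 1.61, adjusted p = 0.588, which turned to 2.48 without LPS replicate 3 and 0.73 without both libraries numbered 3, with adjusted p-values of 0.17 and 0.398), and Ngfr with 66 counts in LPS/siponimod replicate 3 against 0 to 4 elsewhere, below the filter.

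Hgf, the ligand of MET, had 72, 31 and 1 counts under LPS against 41, 47 and 9 under LPS/siponimod. The libraries numbered 3 were the lowest of both conditions, and the conditions overlapped. The log2 FC was -0.36 with a SE of 1.16 (adjusted p = 0.836). Met, its receptor gene, had 51, 20 and 137 counts under LPS against 591, 164 and 1053 under LPS/siponimod. Met was higher in each of the 3 pairs but missed the threshold (log2 FC 2.91, SE 0.93, adjusted p = 0.0604), and it was called higher with the replicate block (adjusted p = 0.00286) and without LPS replicate 3 (3.89, adjusted p = 0.0363), but not without both libraries numbered 3 (3.12, adjusted p = 0.06).

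Of 14 other trophic factors, Hgf among them, 12 were tested and 4 rose with none lower (median log2 FC 0.61). With the replicate block 5 of them were called higher and 1 lower. Spp1, which encodes osteopontin, had 68108, 43678 and 48067 counts under LPS against 497757, 607511 and 1174984 under LPS/siponimod (a log2 FC of 3.64, SE 0.49, adjusted p = 0.00769). Fgf2, a mitogen of glial precursors, had 4, 5 and 17 counts under LPS against 89, 82 and 78 under LPS/siponimod (a log2 FC of 3.01, SE 0.60, adjusted p = 0.0179, and 3.96 without LPS replicate 3, adjusted p = 0.01). Osm and Cntf, cytokines that signal through gp130, had log2 FCs of 1.43 (SE 0.26, adjusted p = 0.0141) and 2.24 (SE 0.51, adjusted p = 0.0256). Of the 13 genes in the list of receptors for the 10 ligands, 12 were listed in the tables, 7 were tested and 1 (Ret) was called, with a median log2 FC of -0.15. Of the 14 genes called in the lists beside Csf1, Ereg and Pdgfa, 4 (Insr, Igf2r, Vegfa and Spp1) kept their call whichever of the 6 libraries was left out. The other 10 lost it without LPS replicate 2, and of these 7 also without LPS replicate 1, 7 without LPS/siponimod replicate 1, 3 without LPS/siponimod replicate 2 and 7 without LPS/siponimod replicate 3, whereas none lost it without LPS replicate 3.

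**Figure D3:**
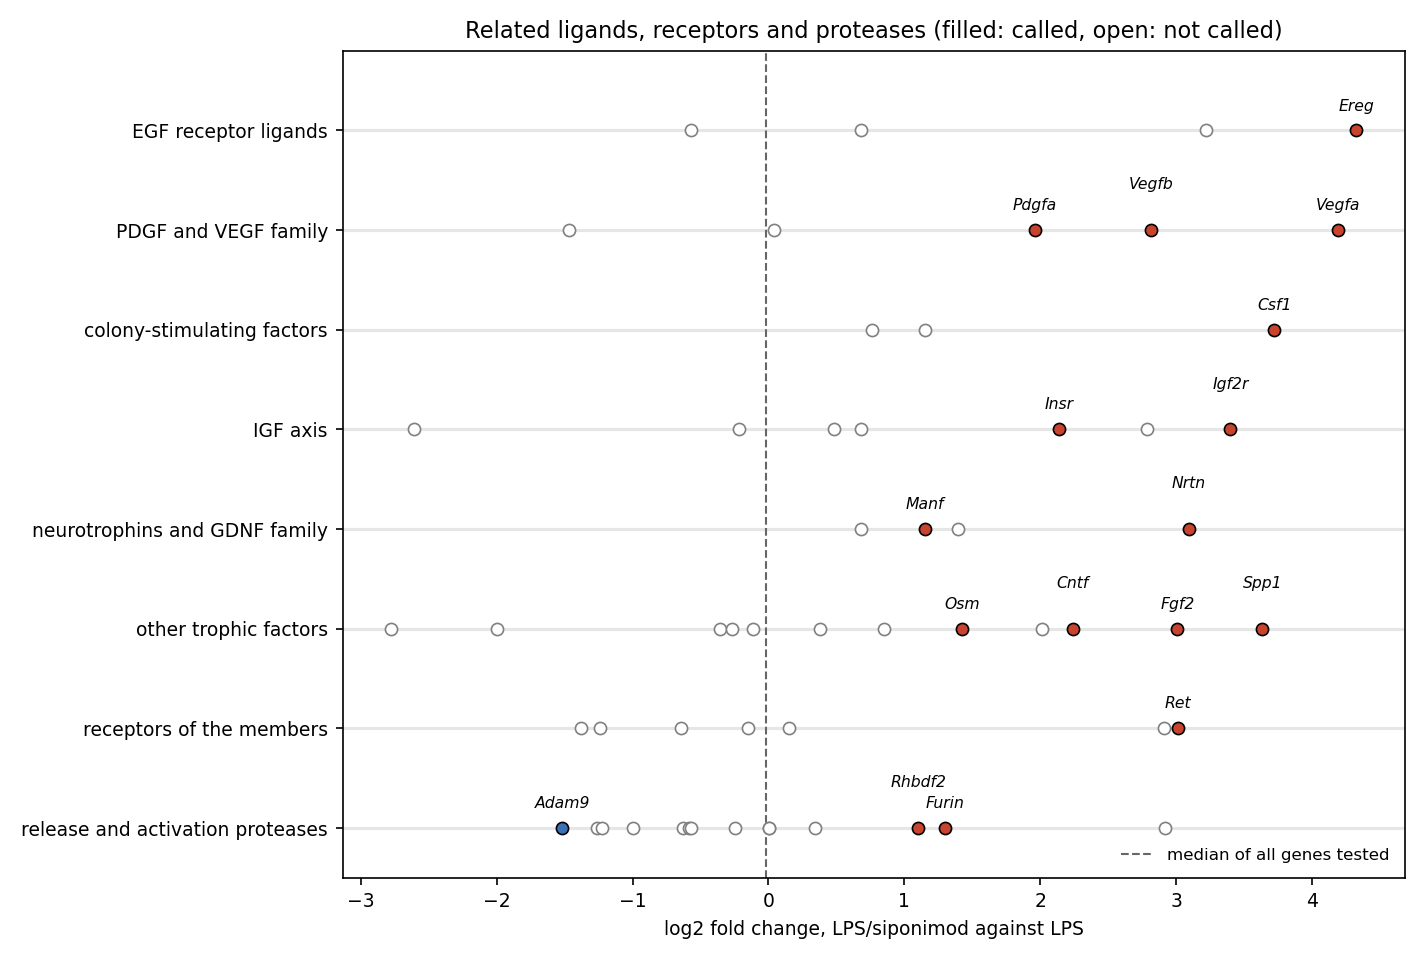
Log2 fold changes (LPS/siponimod against LPS) of the tested genes in 8 lists of related ligands, receptors and proteases, with filled points for genes called higher (red) or lower (blue) and open points for the others, and a dashed line at the median of all genes tested (-0.02). Called ligands lie to the right, up to Ereg (4.33), Adam9 (-1.52) is the only called gene on the left, and Ret (3.02) is the only called receptor of the 10 ligands.

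The size of the change depended on the fit for some of the genes and less so for others. Csf1 and Pdgfa had similar log2 FCs in the fit of all libraries, with the replicate block and without LPS replicate 3 (3.72, 3.64 and 3.54 for Csf1). Ereg, Areg and Hbegf, the ligands of the EGF receptor, each had their highest LPS level in LPS replicate 3, and without it their log2 FCs were higher than with it. Pdgfb, Igf1 and Hgf each had their lowest LPS level in that library.

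**Figure D4:**
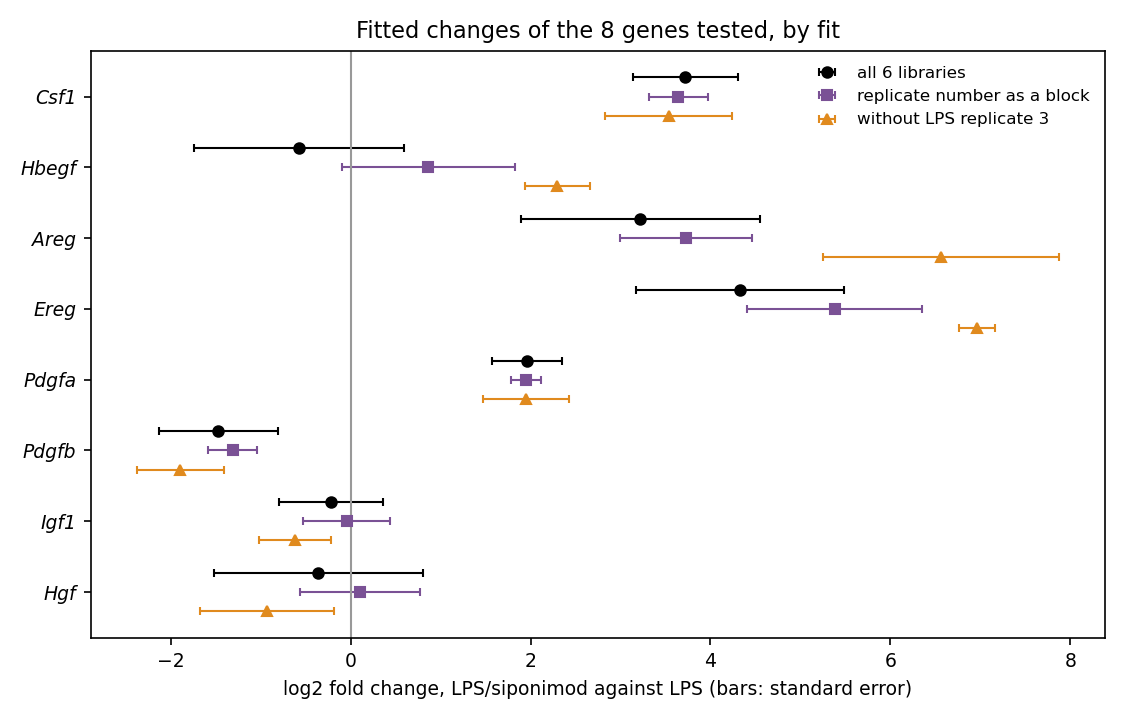
Fitted log2 fold changes (LPS/siponimod against LPS) with SEs for the 8 genes tested, from all 6 libraries (black), with the replicate number as a block (purple) and without LPS replicate 3 (orange). Hbegf moves from -0.57 to 2.30 and Ereg from 4.33 to 6.96 when LPS replicate 3 is left out, and Csf1 and Pdgfa stay in place. The orange value of Areg rests on LPS libraries with 3 counts or fewer and depends on the prior count of the fit.

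By Pearson's r of log2 CPM over the 6 libraries, the genes most like Csf1 were Serpinf2 (0.999), Zfp133 (0.999) and Mospd1_3 (0.999). Those most like Pdgfa were Lzts3 (0.999), Galr2 (0.998) and Kat7 (0.998), and those most like Ereg were Cep192 (0.998), Trmt10a (0.996) and Cnbd2 (0.995). Among 11977 genes and 6 libraries of 2 conditions values of this size describe the order of the libraries and nothing more.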

How the data were processed

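Primary rat microglia were profiled by sequencing of polyA-captured mRNA in 3 LPS and 3 LPS/siponimod libraries. The deposited values are total read counts per gene without normalization. The authors demultiplexed reads with bcl2fastq (version 2.20.0.422, per the labels), trimmed them and mapped them to the rat genome (mRatBN7.2) in the CLC Genomics Workbench. How they treated strand, introns and reads matching several genes is not given in the sources used here. Of the tables, 1 row without a name or value was left out. The labels do not say whether replicates came from separate cultures, whereas the study calls them biological.

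Statistics were computed with edgeR (version 4.0.16; R version 4.3.3). Genes passing filterByExpr (minimum count 10, minimum total 15) were kept, 11977 of 23139, with TMM factors from 0.939 to 1.06. CPM use these effective library sizes. Levels of different genes were not compared, beyond naming the marker with the most counts in a list, as transcript lengths were not used. Condition was the only model term of glmQLFTest, and the standard error is the size of the log2 FC divided by the square root of F. Log2 CPM use a prior count of 2. Replicate numbers were taken to pair libraries, since same-numbered libraries deviated together from their group means (r = 0.42, 0.545 and 0.611 over genes), which is evidence from the data and not from the labels. Alternatives were RLE scaling, DESeq2 (version 1.42.0), limma-voom (limma version 3.58.1), other filters, a replicate block, each library left out, and, chosen after seeing the data, both libraries numbered 3 left out. The procedure was tested on simulated data. The simulated libraries had no replicate effect and none that deviated, so that test does not cover these features of the data.

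The genes and lists were chosen with earlier results of these data known. Named are all 10 genes, their receptors, and up to 4 called genes per list and direction with the smallest p, and the 3 genes most like each of those called. Il34, Adam17, Egf, Csf2, Csf3, Lif, Gas6 and the cell type markers were named after their values were seen.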

Additional observations from a re-analysis of the deposited data

How the results depend on the processing

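Csf1, Areg, Ereg, Pdgfa and Pdgfb kept the direction of their log2 FC under every alternative run (Areg was below the filter of a mean of at least 1 CPM), with ranges of 3.36 to 4.23, 2.29 to 6.56, 3.84 to 6.96, 1.74 to 2.27 and -1.89 to -0.83, and adjusted p-values of 1.19e-10 to 0.0561, 0.0187 to 0.293, 6.33e-05 to 0.114, 2.72e-05 to 0.0745 and 0.0205 to 0.408. Over the fits that left out libraries, Hbegf ranged from -1.08 to 2.30, Igf1 from -0.68 to 0.32 and Hgf from -0.93 to 0.78. Hbegf turned positive with limma-voom (0.87), with the replicate block (0.86), without LPS replicate 3 (2.30) and without both libraries numbered 3 (2.12). Hgf turned positive with limma-voom (0.61), with the replicate block (0.10), without LPS replicate 1 (0.78) and without LPS/siponimod replicate 3 (0.07), and Igf1 without LPS replicate 1 (0.32). The causes were not tested.

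The number of the 10 genes called higher was 3 with RLE scaling, DESeq2, limma-voom and both other filters. It ranged from 0 (without LPS replicate 2) to 5 (without LPS replicate 3), with 4 (Csf1, Hbegf, Areg and Ereg) when both libraries numbered 3 were left out, and the number called lower from 0 to 1. With the replicate block 4 were higher and 1 was lower. Over all genes, 1633 were higher and 1403 lower. With 1 library left out these numbers ranged from 469 and 182 (without LPS replicate 2) to 1941 and 1772 (without LPS replicate 3). They were 1974 and 1924 with DESeq2 and 2114 and 1960 with the replicate block. Leaving out LPS replicate 1 gave 1099 and 644, LPS/siponimod replicate 1 592 and 191, LPS/siponimod replicate 3 762 and 273, and both libraries numbered 3 1335 and 983. The RLE and DESeq2 scalings left the median of all genes at -0.02. Bdnf and Gdnf had at most 16 and 13 counts in a library and stayed below the filter on low counts.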

Other observations

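Csf2, Csf3 and Lif, cytokine genes that were not called, had library patterns like that of Hbegf in the LPS group. Csf3, which encodes the granulocyte colony-stimulating factor, had 212, 116 and 8482 counts in LPS replicates 1, 2 and 3 and 6166, 2436 and 13892 in LPS/siponimod replicates 1, 2 and 3 (log2 FC 1.15, SE 1.59, adjusted p = 0.61). Csf2 had 20, 16 and 468 counts under LPS against 331, 219 and 447 under LPS/siponimod (a log2 FC of 0.76, SE 1.25, adjusted p = 0.673). Lif had 56, 22 and 412 counts under LPS against 628, 319 and 1332 under LPS/siponimod (a log2 FC of 2.01, SE 1.13, adjusted p = 0.215). Without LPS replicate 3 their log2 FCs were 5.34 (Csf3, adjusted p = 0.0185), 4.00 (Csf2, adjusted p = 0.0116) and 4.10 (Lif, adjusted p = 0.0242), and with the replicate block Lif alone was called (adjusted p = 0.013). These 3 genes were chosen after their values were seen.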
